A study of Mus musculus with 19 samples.

Results

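Hnf4a, Hnf4g, Foxa1, Foxa2, Foxa3, Onecut1, Cdx1 and Cdx2 encode DNA-binding factors of the endodermal organs, the tissues that line or grow out of the gut tube. The 8 genes were chosen by symbol, and all were found among the 54532 gene rows, of which 1469 carry a transcription factor family. The study looked for genes restricted to kidney, an organ of mesodermal origin, and profiled total RNA of 19 tissues with 1 sample per tissue. The mice were C57BL/6J, labelled as males at 8 weeks of age on chow. Kidney, liver, stomach, colon, aorta, brain, eye, heart, parathyroid, skeletal muscle, testis, thymus and white adipose tissue (WAT) were in a first table. Intestine, lung, brown adipose tissue (BAT), bone, skin and spleen were in a second.

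HNF4 proteins are nuclear receptors that bind DNA as dimers and maintain the differentiated state of liver, gut epithelium and kidney proximal tubule. FOXA proteins are winged-helix factors that can open closed chromatin, and they prepare foregut endoderm for liver and lung genes. Onecut1 (HNF6) acts in liver and biliary development, and the caudal-type homeobox factors Cdx1 and Cdx2 set intestinal identity against stomach. In liver the HNF4, FOXA and ONECUT factors are known to regulate each other.

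In the coordinates of the deposited table, whose 8 rows equal GENCODE M21 on GRCm38, Hnf4a (ENSMUSG00000017950) lies on chromosome 2 from 163506808 to 163572910 on the plus strand. Hnf4g (ENSMUSG00000017688) lies on chromosome 3 from 3508030 to 3658052, plus strand. Foxa1 (ENSMUSG00000035451) lies on chromosome 12 from 57540628 to 57546916, and Foxa2 (ENSMUSG00000037025) on chromosome 2 from 148042877 to 148046969, both on the minus strand. Foxa3 (ENSMUSG00000040891) lies on chromosome 7 from 19013284 to 19023538, minus strand, and Onecut1 (ENSMUSG00000043013) on chromosome 9 from 74861921 to 74891781, plus strand. Cdx1 (ENSMUSG00000024619) lies on chromosome 18 from 61018862 to 61036199 and Cdx2 (ENSMUSG00000029646) on chromosome 5 from 147300805 to 147307270, both on the minus strand. The 8 genes thus sit on 7 chromosomes.

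Levels are given in FPKM (reads per 1000 bases of transcript and per 1000000 reads assigned to genes), so that genes can be compared per length. Libraries held 11135276 (colon) to 17263334 (parathyroid) assigned reads. With 1 library per tissue no test between tissues could be made, and intervals are exact 95% intervals of counting error, which leave out differences between mice. In bulk tissue, fewer cells of a type and less RNA per cell cannot be told apart. Some libraries went against their labels. The kidney and eye libraries had the X-inactivation RNA Xist at 90.9 and 97.5 FPKM with 3 reads each over 4 Y-linked genes. Aorta and parathyroid had both kinds of transcript, and Xist was at most 0.0683 FPKM in the 15 other tissues. Kidney and eye below mean the libraries labelled so. Contrasts of kidney with the organs low in Xist cannot be told apart from this difference between libraries. Some libraries held markers of further organs, which are given below for liver, kidney, thymus, heart, aorta and eye. The WAT library had all 5 epididymal markers at 1 FPKM or more (summed 16808 FPKM) and stomach had 4 of them (summed 108). Colon had 4 of 5 pancreatic markers at that level (summed 23.3 FPKM), with Ins2 at 0. The part of these in the levels of the members in WAT, stomach and colon was not tested.

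The promoters show which letters bound by these families stand before the starts of the members. RefSeq promoters (GRCm38.p6) were found for 6 of the 8 genes, with 9 starts. The 250 bases before each start were searched on both strands. The letters were CAAAGTCCA for HNF4. For FOXA they were TGTTTAC. The CDX letters were TTTATNG. For ONECUT they were ATTGAT. The TATA box was TATAAA. The sequences below are the stretches outside annotated exons, 5′ to 3′ on the strand of the gene, with every match to a motif in capitals. They are shown because Hnf4a is the gene that kidney shares with the gut and liver, because the FOXA genes had like patterns over tissues, and because Cdx2 marks off the intestine.
Hnf4a, upstream start, chr2:163506607-163506807, plus strand: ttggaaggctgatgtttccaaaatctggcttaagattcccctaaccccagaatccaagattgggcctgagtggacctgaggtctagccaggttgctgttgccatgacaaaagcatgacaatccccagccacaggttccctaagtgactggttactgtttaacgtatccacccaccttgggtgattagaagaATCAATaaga
Foxa1, chr12:57546122-57546361, minus strand: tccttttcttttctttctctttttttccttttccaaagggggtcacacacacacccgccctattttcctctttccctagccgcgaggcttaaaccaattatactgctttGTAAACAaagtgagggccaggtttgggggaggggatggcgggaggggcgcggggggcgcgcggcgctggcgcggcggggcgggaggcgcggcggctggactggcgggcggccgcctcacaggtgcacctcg
Foxa2, chr2:148046970-148047219, minus strand: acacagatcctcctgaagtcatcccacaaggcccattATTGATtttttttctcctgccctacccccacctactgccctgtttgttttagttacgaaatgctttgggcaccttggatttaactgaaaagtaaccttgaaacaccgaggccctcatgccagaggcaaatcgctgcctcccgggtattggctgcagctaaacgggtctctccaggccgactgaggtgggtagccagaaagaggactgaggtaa
Foxa3, chr7:19023540-19023789, minus strand: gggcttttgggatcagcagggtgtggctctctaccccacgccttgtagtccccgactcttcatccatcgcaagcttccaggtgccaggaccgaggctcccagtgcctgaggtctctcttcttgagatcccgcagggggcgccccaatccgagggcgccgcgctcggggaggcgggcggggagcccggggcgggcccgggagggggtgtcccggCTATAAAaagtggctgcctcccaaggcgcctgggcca
Cdx2, chr5:147307271-147307499, minus strand: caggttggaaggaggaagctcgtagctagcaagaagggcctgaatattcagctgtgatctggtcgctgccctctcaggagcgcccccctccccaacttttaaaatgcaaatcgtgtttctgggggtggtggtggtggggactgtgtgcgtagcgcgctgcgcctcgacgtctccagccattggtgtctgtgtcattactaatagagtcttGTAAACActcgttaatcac
Upstream of its first start Hnf4a has ATCAAT, the ONECUT letters on the opposite strand. Before its other start, at 163547155 and not shown, none of these letters were found. Which start each organ uses was not tested. The FOXA letters stand on the opposite strand, as GTAAACA, in Foxa1 and in Cdx2. The Foxa1 window lies before a start inside the gene, whose own coordinates reach to 57546916, so it is not upstream of the whole gene. Foxa2 has ATTGAT at the start shown, and the CTATAAA of Foxa3 matches the TATA box on one strand and the CDX letters on the other. Of the 250-base windows of all 32851 promoters in the table, 0.384% hold the HNF4 motif, 3.17% FOXA, 9.81% CDX, 6.72% ONECUT and 12.4% the TATA box. These matches are letters in a window and were not tested as binding sites.

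**Figure D1:**
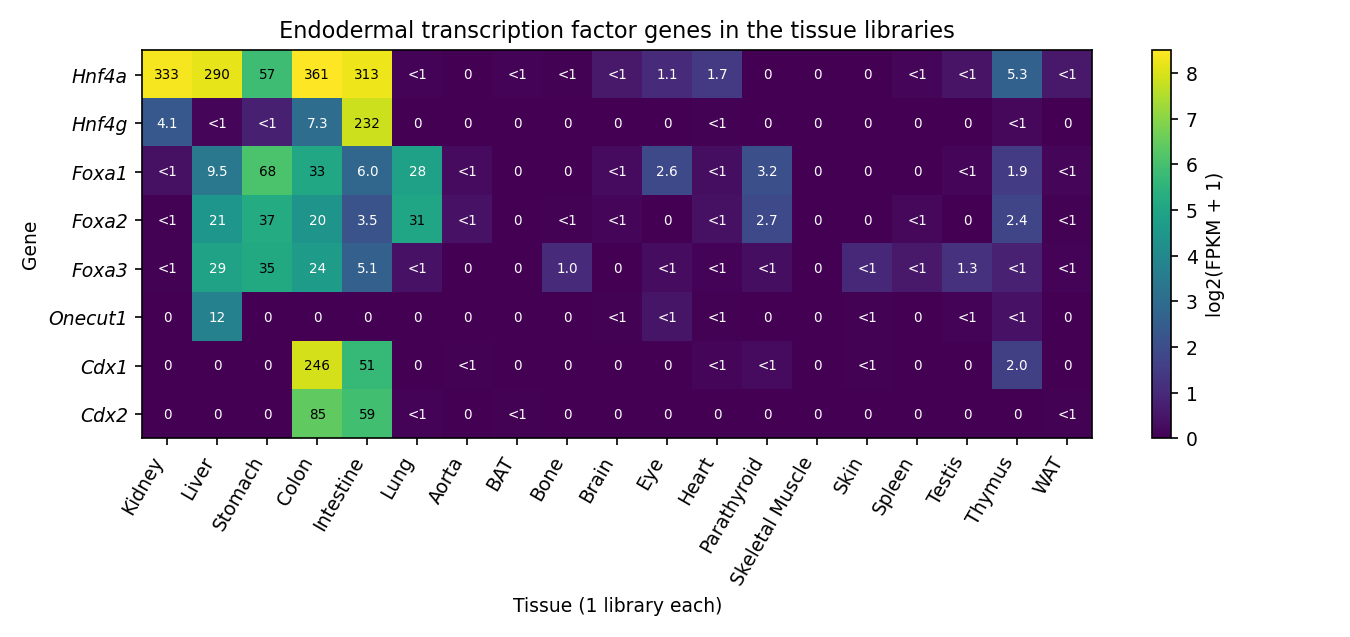
Level of each of the 8 genes (rows) in each of the 19 tissue libraries (columns), coloured by log2(FPKM + 1), with the FPKM printed in each cell, "<1" below 1 FPKM and 0 where the library had 0 reads. Kidney shares the high Hnf4a of liver, colon and intestine but has little of the other members, and colon and intestine hold 7 of the 8 genes at 1 FPKM or more.

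Kidney had Hnf4a near the level of liver, colon and intestine, but hardly any of the FOXA, ONECUT and CDX genes. Those other organs all had FOXA genes, with Onecut1 in liver only and the CDX genes in colon and intestine only. At 1 FPKM or more were 2 of the 8 genes in kidney (Hnf4a and Hnf4g), 5 in liver, 4 in stomach, 7 in colon, 7 in intestine and 2 in lung (Foxa1 and Foxa2). Among all 1469 transcription factor genes the share at that level was 59.6% in kidney, 50.6% in liver, 56.8% in stomach, 60% in colon, 59.2% in intestine and 65.4% in lung. So 2 of 8 in kidney and in lung lie below those shares, and 7 of 8 in colon and intestine above them. Outside these 6 organs, thymus had 4 of the genes at that level, eye and parathyroid 2 each, and heart, testis and bone 1 each. Skeletal muscle had 0 reads for all 8 genes. The genes were chosen as factors of endoderm and kidney, so high levels there were built into the choice.

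Hnf4a, the HNF4 gene that liver, gut and kidney share, was at 361 FPKM in colon (interval 353 to 369, 8445 reads), 333 in kidney (327 to 339, 11811 reads), 313 in intestine (307 to 318, 10814 reads) and 290 in liver (284 to 296, 9453 reads). These 4 tissues stood together, and stomach was clearly apart from them at 56.8 FPKM (54.2 to 59.4). Kidney was at 1.15 times liver (1.12 to 1.18), 0.922 times colon (0.896 to 0.948) and 1.07 times intestine (1.04 to 1.09), and at 5.87 times stomach (5.59 to 6.16). The intervals leave out 1, but the order of the 4 tissues depends on the scaling: with median-of-ratios size factors Hnf4a was at 354 in kidney and 541 in liver, and with upper quartile scaling at 347 and 609. Kidney was at 1.02 times colon with upper quartile scaling. Among the 1469 transcription factor genes of each library, Hnf4a was number 2 in kidney, 3 in liver, 4 in intestine, 5 in colon and 42 in stomach. No scaling of a library alters such a rank, but the length used per gene can.

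The level of Hnf4a in kidney was close to the mean of other kidney libraries, whose single values were not available. The mean of 2 further kidney libraries, derived from the authors' deposited mean, was 351 FPKM for Hnf4a, 5.46% above the library used here, and 3.68 FPKM for Hnf4g. Onecut1, Cdx1 and Cdx2 were at 0 there too. Those libraries had Xist at a mean of 94.2 FPKM.

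Beyond the 5 organs, Hnf4a was at 5.26 FPKM in thymus (184 reads), 1.69 in heart (50 reads), 1.09 in eye (38 reads), 0.508 in WAT, 0.505 in brain and 0.366 in testis. Spleen, lung, BAT and bone had 1 to 3 reads, and aorta, parathyroid, skeletal muscle and skin had 0. A floor of 3 reads is 0.0963 FPKM of Hnf4a in aorta and 0.0846 in kidney. Its values thus fell into 4 high tissues, stomach below them, low levels in thymus, heart and eye, and traces or none elsewhere.

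Hnf4g, the close paralog known mainly from gut, was an intestinal gene here. It had 232 FPKM in intestine (227 to 236, 8678 reads), 7.30 in colon (185 reads), 4.06 in kidney (156 reads), 0.686 in stomach (25 reads), 0.132 in thymus and 0.0848 in liver (3 reads). Heart had 1 read and the other tissues had 0. Intestine was at 31.7 times colon (27.4 to 36.9) and 57.0 times kidney (48.7 to 67.3). The colon library, with Hnf4g at 3.15% of intestine, also had low levels of Sis and Lct, genes far higher in intestine. Any part of intestinal transcripts in the colon value was not tested. Kidney was at 0.556 times colon (0.446 to 0.691) and at 47.8 times liver (16.1 to 234), the last a ratio that rests on 3 liver reads and became 27.2 and 23.7 under the 2 other scalings. The liver library also held kidney transcripts, with Slc34a1, Slc5a2, Lrp2, Umod, Slc12a3 and Aqp2 at 1.75 to 11.3% of their kidney levels, and its Hnf4g was at 2.09% of that in kidney. Their part in it was not tested.

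Per length, Hnf4g made up 42.6% of the summed Hnf4a and Hnf4g in intestine, 1.98% in colon, 1.20% in kidney, 1.20% in stomach and 0.0293% in liver. Intestine was thus the tissue where the paralogs stood near each other, with Hnf4g at rank 6 and Hnf4a at rank 4 among its transcription factor genes. In kidney Hnf4g ranked 609 of 1469. Shares within a library do not depend on its scaling. In the authors' second FPKM table, which uses another length per gene and another scaling, intestine had 162 for Hnf4a and 238 for Hnf4g, so the order of the pair turns with the length used.

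**Figure D2:**
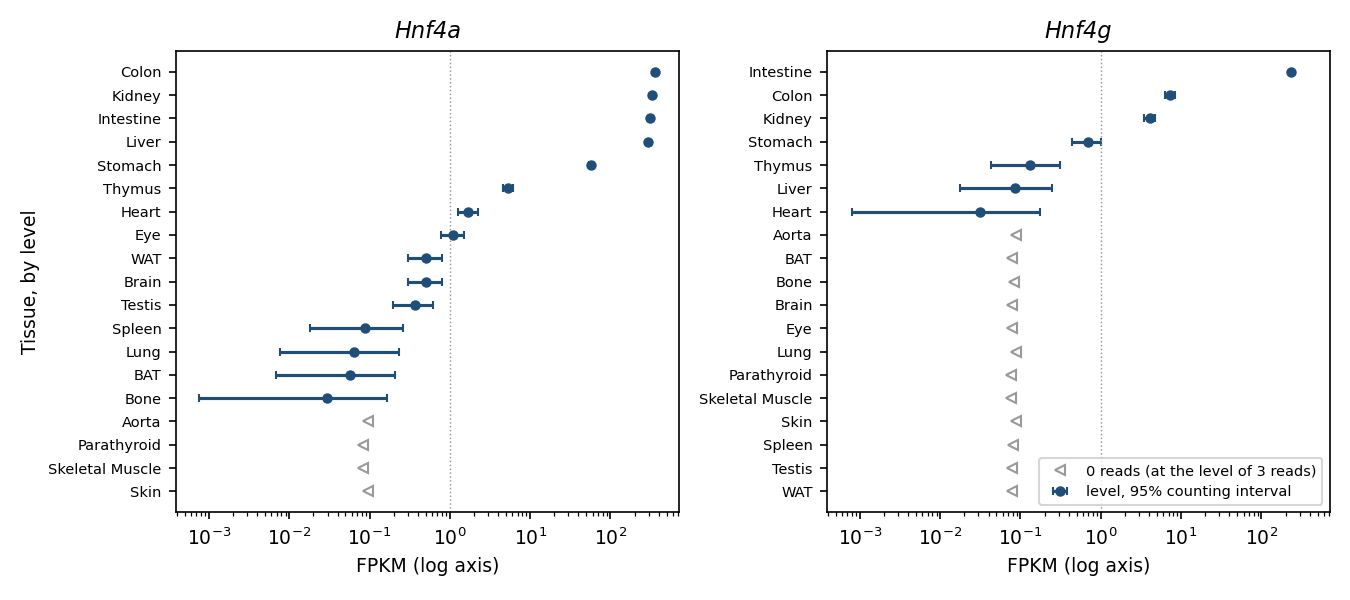
FPKM (log axis) of Hnf4a and Hnf4g in the 19 tissue libraries, ordered by level, with points for the level and bars for the 95% interval of counting error; open triangles mark libraries with 0 reads, drawn at the level of 3 reads. Hnf4a is near 300 FPKM or above in colon, kidney, intestine and liver, and Hnf4g reaches 232 FPKM in intestine and 7.30 FPKM in colon, the next tissue.

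An antisense transcript, Hnf4aos (chromosome 2, 163493807 to 163541720, minus strand), overlaps the first part of Hnf4a. It had 257 reads in kidney, 118 in intestine, 102 in liver, 3 in stomach and 0 in colon. As a share of the reads of both genes this was 2.13% in kidney (exact binomial interval 1.88 to 2.40%), 1.08% in intestine (0.894 to 1.29%), 1.07% in liver (0.871 to 1.29%) and 0.157% in stomach (0.0324 to 0.458%). In colon 3 reads would be 0.0355%. Colon, with 8445 reads of Hnf4a, thus had none of its antisense. Whether counting used strand is not given in the sources used here, and without strand the reads of the pair cannot be told apart where they overlap. The lincRNA model Gm20649, which covers nearly all of Onecut1 on the same strand, had 0 reads in all tissues, as had the small models Gm37000 and Gm23237 within Hnf4g, and Gm25881 within Hnf4a had 2 reads.

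The FOXA genes were nearly silent in kidney and highest in stomach, although for Foxa3 liver was highest under other scalings. Foxa1 was at 68.0 FPKM in stomach (65.0 to 71.1), 33.4 in colon, 28.4 in lung, 9.46 in liver, 6.03 in intestine, 3.18 in parathyroid, 2.63 in eye and 1.87 in thymus. Stomach was at 2.03 times colon (1.86 to 2.22), while parathyroid and eye, and eye and thymus, did not differ beyond counting error. Kidney had 9 reads of Foxa1 (0.296 FPKM, 0.135 to 0.561), and the remaining tissues were at or below 0.237 FPKM.

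Foxa2 was at 36.6 FPKM in stomach (34.2 to 39.1), 31.1 in lung, 21.3 in liver, 20.0 in colon, 3.49 in intestine, 2.70 in parathyroid and 2.43 in thymus. Intestine and parathyroid, and parathyroid and thymus, did not differ beyond counting error, and all further tissues were at or below 0.323 FPKM. Lung was at 0.850 times stomach (0.768 to 0.942), and at 1.46 times liver (1.30 to 1.65). That order turns with median-of-ratios size factors, where Foxa2 was at 23.5 in lung and 39.8 in liver. Liver was at 1.06 times colon (0.923 to 1.23), an interval that includes 1, but at 1.99 times with size factors and 2.37 times with upper quartile scaling. Kidney had 1 read, and a floor of 3 reads is 0.122 FPKM there.

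Foxa3, the third gene of the family and known from liver and gut, was at 35.2 FPKM in stomach (33.2 to 37.3), 28.7 in liver (26.9 to 30.6), 24.3 in colon and 5.07 in intestine. Stomach was at 1.23 times liver (1.12 to 1.34), but that order turns with size factors (46.7 in stomach and 53.6 in liver) and with upper quartile scaling (48.1 and 60.4). Testis was at 1.30 FPKM (45 reads), bone at 1.05 (34 reads) and skin at 0.942 (29 reads). Testis and bone, and bone and skin, did not differ beyond counting error. Lung had 10 reads of Foxa3 (0.328 FPKM), so stomach was at 107 times lung (58.1 to 224) for this gene, against 1.18 times (1.06 to 1.30) for Foxa2 and 2.39 times (2.20 to 2.61) for Foxa1. With size factors these ratios were 188 for Foxa3, 2.06 for Foxa2 and 4.20 for Foxa1, and with upper quartile scaling 211, 2.31 and 4.71. Kidney had 1 read.

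The mix of the 3 FOXA genes therefore differed by organ. Summed per length they reached 140 FPKM in stomach, 77.8 in colon, 59.9 in lung, 59.5 in liver and 14.6 in intestine. Foxa3 made up 48.3% of the sum in liver, 34.7% in intestine, 31.3% in colon, 25.2% in stomach and 0.549% in lung. Foxa1 made up 15.9% in liver and 41.3 to 48.6% in intestine, colon, lung and stomach. Lung was thus a Foxa1 and Foxa2 organ and liver a Foxa2 and Foxa3 organ by these libraries. The sum in liver was 111 with size factors, above the 77.8 of colon.

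**Figure D3:**
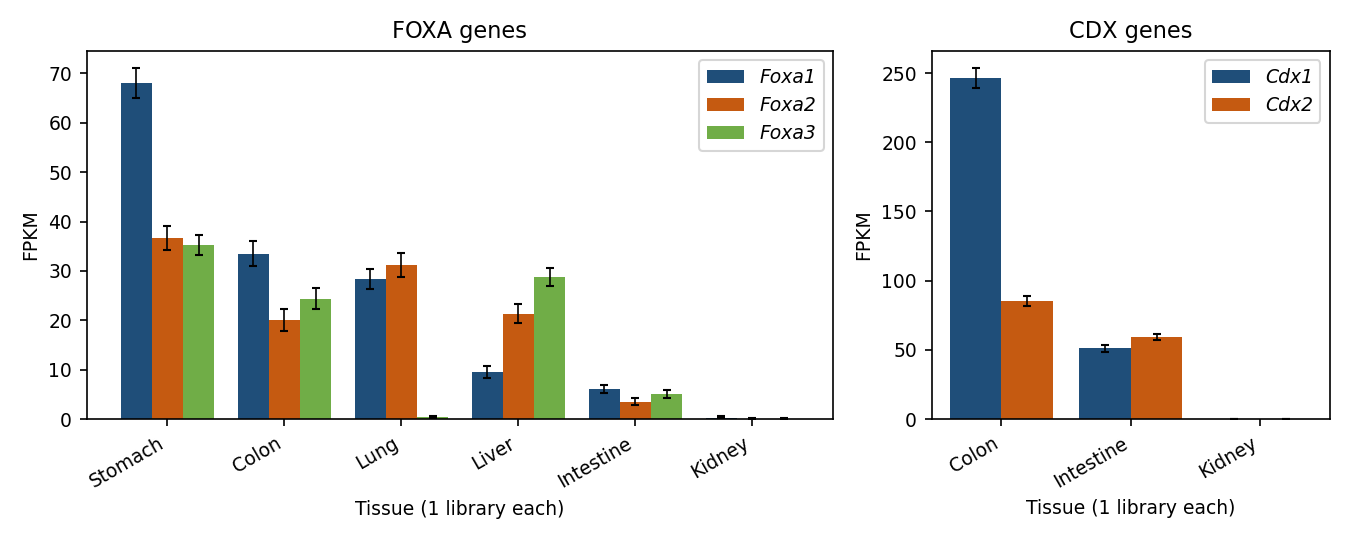
FPKM of Foxa1, Foxa2 and Foxa3 in stomach, colon, lung, liver, intestine and kidney (left), and of Cdx1 and Cdx2 in colon, intestine and kidney (right), 1 library per tissue, with bars from 0 and 95% intervals of counting error. Foxa3 is at 0.328 FPKM in lung and leads in liver at 28.7 FPKM, and both panels are near or at 0 in kidney.

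Onecut1 was a liver gene, at 12.4 FPKM (11.4 to 13.6, 499 reads) and rank 187 of 1469 factor genes. Eye had 0.395 FPKM (17 reads), thymus 0.325 (14 reads), testis 3 reads, brain 2, heart 1 and skin 1. Liver was at 31.5 times eye (19.5 to 54.4), and at 74.7 and 117 times with size factors and upper quartile scaling. The libraries of kidney, stomach, colon, intestine and lung had 0 reads, which puts liver at least 171-fold higher than stomach, at least 176-fold higher than intestine and at least 119-fold higher than colon on a floor of 3 reads per library. In kidney a floor of 3 reads is 0.0687 FPKM.

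The CDX genes were confined to colon and intestine among the tissues at 10 FPKM or more. Cdx1 was at 246 FPKM in colon (239 to 253, 4801 reads, rank 11 of the factor genes) and 51.0 in intestine (48.4 to 53.7, 1470 reads). Thymus followed at 2.03 FPKM (59 reads), parathyroid at 0.199 (6 reads), and heart, aorta and skin had 1 to 3 reads. Colon was at 4.83 times intestine (4.56 to 5.13).

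Cdx2 was at 85.2 FPKM in colon (81.6 to 88.8, 2144 reads) and 59.2 in intestine (56.8 to 61.7, 2206 reads), with 2 reads in lung and 1 each in BAT and WAT. Colon was at 1.44 times intestine (1.35 to 1.53), a smaller ratio than for Cdx1. Cdx1 made up 74.3% of the pair in colon and 46.3% in intestine. Kidney, liver and stomach had 0 reads of both genes. With 3 reads as the floor, intestine was at least 502-fold higher than kidney for Cdx1 and at least 754-fold higher for Cdx2.

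By the rule used for tissue-enriched genes (1 FPKM or more, and 4 times the next tissue after 0.1 FPKM is added to each), 3 of the 8 genes were enriched among the 13 tissues of the first table. These were Onecut1 in liver and Cdx1 and Cdx2 in colon. That rule called 25.1% of the protein-coding genes that reached 1 FPKM somewhere, and 16.4% of such transcription factor genes. With 19 tissues 3 of 8 were again enriched, beside 22.4% of protein-coding and 14.9% of transcription factor genes, but Hnf4g in intestine took the place of Cdx2, for which intestine was then within 4-fold of colon. None of the 8 was enriched in kidney. A count of 3 among 8 genes picked for their tissues is a description of the genes picked.

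Thymus was the one further organ with several members, and its library also held markers of other organs. There Hnf4a was at 1.82% of its liver level, Foxa3 at 2.46%, Onecut1 at 2.62%, Foxa2 at 11.4% and Foxa1 at 19.7%. The liver markers Alb, Apoa1, Ttr and Fga were at 1.37 to 1.43% of theirs. Of these, 4 of 4 were detected, summed at 1128 FPKM in thymus and 79726 in liver. As ratios to liver, the counting intervals were 0.0156 to 0.0210 for Hnf4a, 0.0157 to 0.0369 for Foxa3 and 0.0142 to 0.0444 for Onecut1. Foxa1 was at 6.57% and Foxa2 at 7.80% of lung, where the airway and alveolar markers Scgb1a1, Scgb3a2, Foxj1 and Sftpc (4 of 4 detected) were at 5.93 to 9.80%. Cdx1 was at 0.822% of colon, with Cdh17, Vil1 and Lgals4 at 0.267 to 0.339%, and Cdx2 had 0 reads. As a ratio to colon, Cdx1 had a counting interval of 0.00625 to 0.0106. The thymic epithelial genes Prss16, Psmb11, Aire and Foxn1 were at 611, 59.7, 17.0 and 5.59 FPKM, each highest in thymus; Aire is known to drive transcription of organ-restricted genes in these cells.

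In heart, Hnf4a was at 0.585% of liver with the 4 liver markers at 0.345 to 0.432%. As a ratio to liver, Hnf4a in heart had a counting interval of 0.00434 to 0.00772. The thymic gene Prss16 was at 48.9 FPKM in heart. In aorta, Foxa1 (5 reads) and Foxa2 (7 reads) were at 5.88% and 12.0% of parathyroid, with thyroid and parathyroid markers there at 8.20 to 9.54%. The eye library, where Foxa1 had 79 reads, held the squamous keratins Krt5, Krt13 and Krt4 at 1300, 1333 and 326 FPKM. It also held 2 of 4 urothelial markers at 1 FPKM or more, but only 1 at 10 or more (summed 127 FPKM, median 0.921). Of 4 gastric gland markers, 2 were at 1 FPKM or more and 1 at 10 or more (summed 23.4 FPKM). In skin 2 of these 3 keratins were at 1 FPKM or more and only 1 at 10 or more (summed 2155 FPKM, median 1.26), with 0 reads of Foxa1. The part of these markers in the low levels of the members was not tested.

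**Figure D4:**
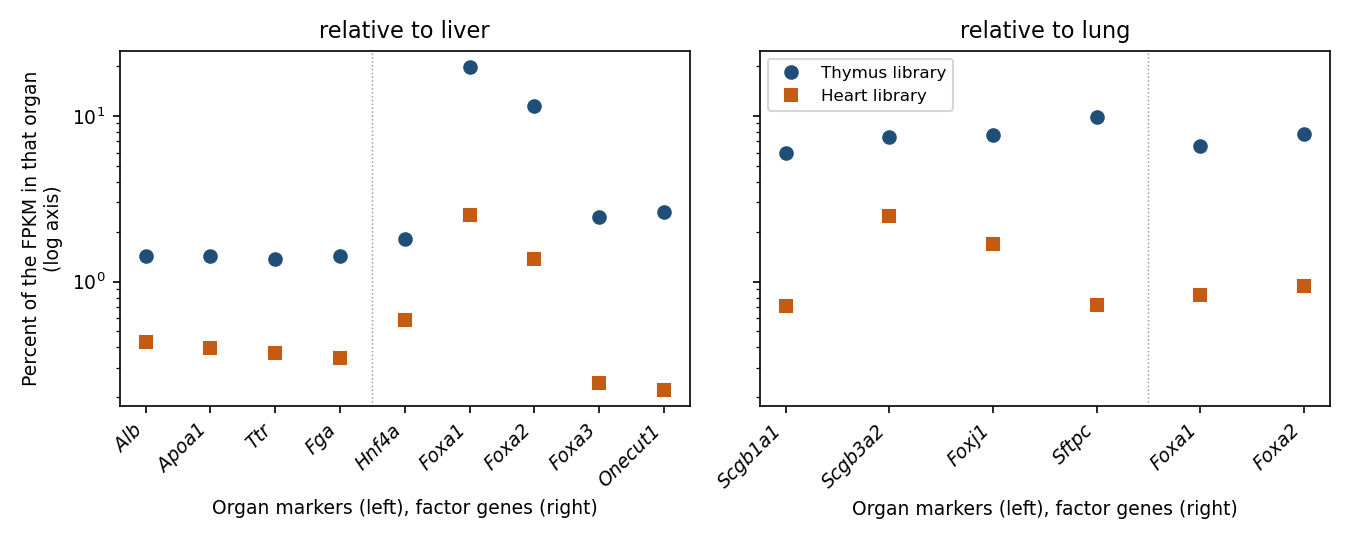
Level in the thymus library (circles) and heart library (squares) as a percentage (log axis) of the level in liver (left) or lung (right), for organ markers (left of the dotted line) and for the factor genes (right of it), 1 library per tissue. In thymus, Hnf4a is at 1.82%, Foxa2 at 11.4% and Foxa1 at 19.7% of liver, beside liver markers at 1.37 to 1.43%. Foxa2 is at 7.80% of lung, beside markers at 5.93 to 9.80%.

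Partner factors showed which further regulators kidney shares with the endodermal organs. Of 24 listed genes, 8 were at 1 FPKM or more in kidney, 13 in liver, 14 in stomach, 13 in colon, 16 in intestine and 10 in lung. Among all transcription factor genes the shares were 59.6% in kidney, 50.6% in liver and 56.8% in stomach. They were 60% in colon, 59.2% in intestine and 65.4% in lung. The counts in liver, stomach, colon and intestine are near these shares, and those in kidney and lung lie below them. The bile acid receptor gene Nr1h4 was at 64.0 in liver, 42.8 in kidney, 40.5 in colon and 16.0 in intestine. Like Hnf4a, it was above 10 FPKM in these 4 organs.

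Other partners were highest outside kidney. Gata4, a zinc-finger factor of foregut and heart, was at 129 FPKM in stomach, 73.0 in intestine, 58.3 in heart and 0.0959 in kidney (3 reads). Klf5, a factor of gut epithelial growth, was at 93.0 in colon, 84.9 in intestine and 0.458 in kidney. Isx, a homeobox gene of the small intestine, was at 56.5 in intestine and 7.97 in colon, with 0 reads in kidney, liver and stomach. Sox17, an endodermal and endothelial factor, was at 71.8 in lung and 11.5 in testis, the next tissue. Cebpa, a factor of liver and fat, was at 272 in liver and 38.0 in kidney, and highest in BAT at 390.5. Nkx2-1, the lung and thyroid homeobox gene, was at 194 in parathyroid (a library with thyroid transcripts) and 104 in lung. Onecut2, the paralog of Onecut1, was at 6.51 in intestine and 4.73 in liver, so it was present in intestine where Onecut1 had 0 reads. Barx1, a stomach homeobox gene, was at 27.4 in stomach and had 0 reads in kidney, liver, colon and intestine.

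Genes known as HNF4A targets differed between the organs that share Hnf4a. Of 14 targets known from liver, 14 were at 1 FPKM or more in liver and 10 in kidney. Thymus had 13 at that level, colon 10, intestine, heart and WAT 9 each, and stomach 7, so the count in kidney was not particular to organs high in Hnf4a. Among all protein-coding genes the share at that level was 50.9% in liver, 56.3% in kidney, 55.7% in stomach, 58.4% in colon, 57.1% in intestine and 61.2% in lung. The median of the 14 was 454 FPKM in liver, 15.4 in kidney, 13.5 in colon, 3.92 in intestine and 1.15 in stomach. Over all protein-coding genes that reached 1 FPKM somewhere, the median was 2.81 FPKM in liver, 5.85 in kidney, 6.05 in colon, 5.33 in intestine and 4.49 in stomach. Alb was at 61321 FPKM in liver and 46.3 in kidney. Of the liver markers, the kidney library held Alb at 0.0755%, Apoa1 at 0.0599%, Fga at 0.783% and Ttr at 2.18% of their liver levels. Alb, Apoa1 and Ttr are themselves among the 14, and the part of liver transcripts in the kidney values was not tested. The clotting factor gene F9 was at 72.5 FPKM in liver and had 1 read in kidney, and the bile acid enzyme gene Cyp7a1 was at 38.4 FPKM in liver, also with 1 read in kidney. The apolipoprotein gene Apoa1 was also high in intestine, at 9749 FPKM, beside 11724 in liver, and Mttp, which loads lipid onto apolipoprotein B, reached 922 in intestine and 89.6 in liver. Of the 14, 12 were enriched in 1 of 13 tissues, all in liver, and 8 in 1 of 19. Over all protein-coding genes that reached 1 FPKM somewhere, these shares were 25.1% and 22.4%.

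Of 10 targets known from the proximal tubule, all were at 10 FPKM or more in kidney, with a median of 180 FPKM. The liver library held kidney transcripts at 1.75 to 11.3% of their kidney levels, as given for Hnf4g, and their part in its tubular values was not tested. The median was 8.52 in liver, 0.785 in intestine, 0.134 in colon and 0.132 in stomach. The phosphate transporter gene Slc34a1 was at 2478 FPKM in kidney, 124 in liver (4.99% of kidney, and itself one of those transcripts), 0.680 in colon and 0.0328 in intestine (1 read). The organic anion transporter genes Slc22a6 and Slc22a8 were at 176 and 295 FPKM in kidney, with 0 reads in colon and intestine. Some were shared with intestine: the amino acid transporter gene Slc6a19 was at 257 FPKM in intestine and 185 in kidney, and the brush-border gene Cdhr5 at 778 and 146. Enriched were 9 of 10 among 13 tissues, all in kidney, and 6 of 10 among 19, beside 25.1% and 22.4% of all protein-coding genes. Since the lists were drawn up by organ, their place in that organ was built in.

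**Figure D5:**
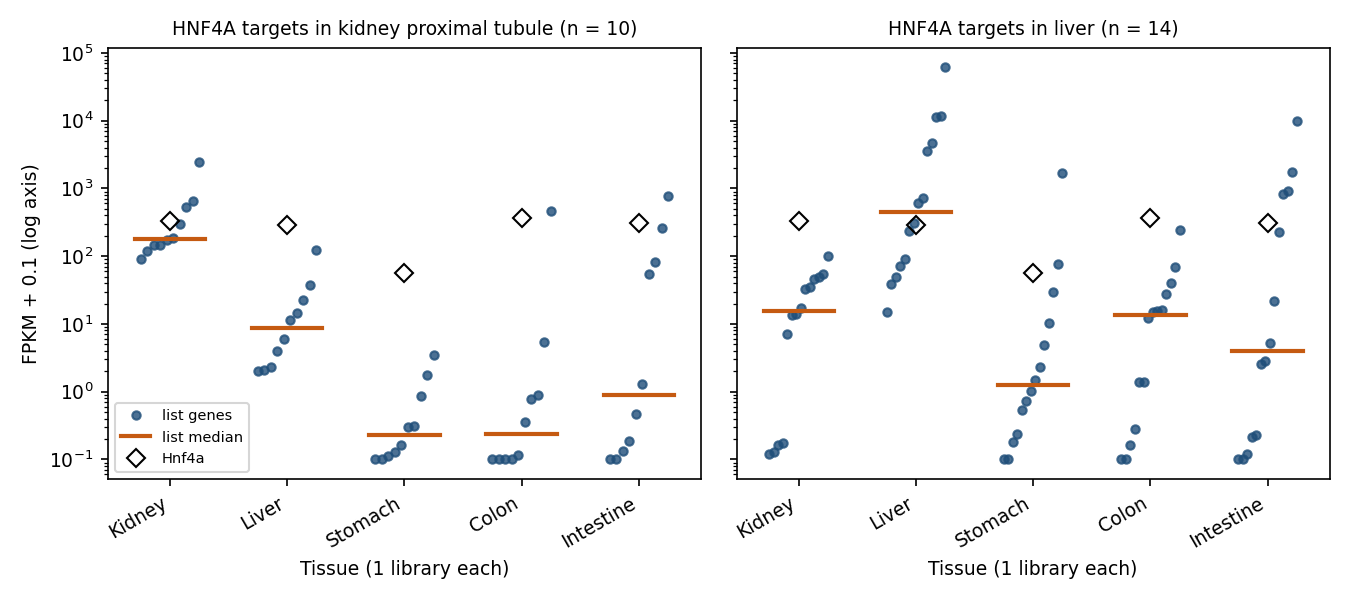
FPKM + 0.1 (log axis) of 10 HNF4A targets known from proximal tubule (left) and 14 known from liver (right) in kidney, liver, stomach, colon and intestine, 1 library per tissue; points are genes, orange bars the list median and open diamonds Hnf4a. Hnf4a is close to the same height in kidney, liver, colon and intestine, while the medians lie at 180 FPKM in kidney and 8.52 in liver for the tubular list and at 15.4 in kidney and 454 in liver for the hepatic one.

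CDX2 and FOXA targets were set beside their factors in the same way. All 12 CDX2 targets were at 1 FPKM or more in both gut libraries, with medians of 454 FPKM in intestine and 158 in colon, against 0.113 in kidney, 0.241 in stomach and 0.0584 in liver. The cadherin gene Cdh17 was at 395 FPKM in intestine and 194 in colon, with 0 reads in kidney, liver and stomach. The digestive enzyme genes Sis and Lct were at 1060 and 710 FPKM in intestine and at 17.0 and 4.92 in colon. Mucin gene Muc2 went the other way, with 2012 in colon and 512 in intestine. Kidney, with 0 reads of Cdx1 and Cdx2, still had the brush-border genes Mep1a at 761 FPKM (121 in colon) and Vil1 at 186 FPKM (675 in colon). Of the 12, 10 were enriched among 13 tissues (9 in colon, and Mep1a in kidney) and 4 among 19. The shares of all protein-coding genes were 25.1% and 22.4%, so 4 of 12 is near the background. This list was drawn up for intestine, so its place there was built in.

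Of 10 FOXA targets, 5 were at 1 FPKM or more in kidney, where the FOXA genes had 1 to 9 reads, beside 6 in liver, 5 in stomach and 5 in lung. These counts are near the shares of all protein-coding genes given above, and thymus had 7, heart 6, colon 6 and WAT 6. The gluconeogenic gene Pck1 was at 3892 FPKM in kidney and 827 in liver. Igfbp1, which binds insulin-like growth factors, was at 30.9 in kidney and 51.5 in liver, with 0 reads in stomach, colon, intestine and lung. The surfactant gene Sftpb (1969 FPKM in lung) and Scgb1a1 (39398 in lung) had 0 reads in liver. The list shares Alb, Tat and Ttr with the liver HNF4A list and Muc2 with the CDX2 list, so their counts overlap. Of these 10 genes, 6 were enriched among 13 tissues (Alb and Tat in liver, Pck1 in kidney, Muc2 in colon, and Sftpb and Scgb1a1 in thymus, the library with lung markers). Among 19 tissues 4 were, with Sftpb and Scgb1a1 then in lung. The shares of all protein-coding genes were 25.1% among 13 tissues and 22.4% among 19.

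The genes whose pattern was most like that of each member were taken by Pearson's r of log2(FPKM + 1) over the 13 tissues of the first table, among 18198 protein-coding genes, as a description of points that share libraries and depth. The 3 for Hnf4a included Nr1h4 (0.981) and the ectonucleotidase gene Entpd8 (0.964), and over 19 tissues Nr1h4 (0.976) and the glucuronosyltransferase gene Ugt2b34 (0.969). For Foxa1 the first was Foxa2 (0.942), followed by Nostrin (0.912) and Sult1b1 (0.912), and for Foxa2 it was Foxa3 (0.946), followed by Foxa1 and Fabp2. Foxa3 had Fabp2 (0.966), Gstm3 (0.947) and Foxa2. Over 19 tissues, lung included, Foxa1 and Foxa2 had r of 0.956, Foxa3 was no longer among the 3 nearest to Foxa2, and Foxa2 no longer among those nearest to Foxa3.

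For Hnf4g the 3 were Clrn3, Cyp2d12 and Hsd11b2 (0.960 to 0.974), all highest in colon and then kidney, and over 19 tissues Gm11127, the hexose transporter gene Slc2a7 and Olfr165 took their place. The nearest to Onecut1 (Nlrp12, Cyp2c40 and Mup1), to Cdx1 (Reg3b, Gm14851 and Ceacam18) and to Cdx2 (2310034C09Rik, Defa24 and Defa3) had r of at least 0.992. In each of these genes 1 tissue carried nearly all of the reads of the first table, so such r values say little. Over 19 tissues Cdx1 had Atoh1, Reg4 and Ang4, and Cdx2 had Ang4, Reg4 and Tm4sf20, secretory and epithelial genes of colon and intestine. Among the members, Cdx1 and Cdx2 had r of 0.980, Foxa1 and Foxa3 0.904, and Hnf4a and Hnf4g 0.776, while Onecut1 had 0.428 with Hnf4a.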

How the data were processed

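Total RNA of 19 mouse tissues was sequenced, 1 sample per tissue, and the sample titles gave the tissue. The authors deposited FPKM for 13 tissues, a table of group FPKM in which kidney is the mean of 3 libraries, raw read counts for 6 tissues and an FPKM table for those 6. DESeq2 appears in the submitters' processing notes, with neither role nor version. Trizol extraction with DNase treatment is recorded per the labels' protocols. For the library kit, strandedness, aligner and build nothing is stated in the sources used here.

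Whole reads were recovered from the deposited FPKM (whole within 1e-05; 99.9966 to 100% of each library). For the 6 tissues FPKM was recomputed from counts on the scale of the first table. Since 1119 genes stood at 3 times the deposited kidney mean, the mean of the other 2 kidney libraries could be derived.

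Folds are ratios of FPKM with exact binomial (Clopper-Pearson) 95% intervals, and levels have exact Poisson ones. Against 0 reads a floor of 3 reads per library was used. The rule for enriched genes and the recovery of reads were tested on simulated data. No p-values were computed.

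The members and gene lists were chosen with earlier results of these data known. Some listed genes, and a motif, are not reported here. Named were the members, the 3 genes most like each, overlapping gene models and, per list, up to 6 genes highest in kidney, liver, stomach, colon, intestine or lung, or with 0 reads there. Markers of thymic epithelium and sex were added after the data were seen. Python 3.11.15, numpy 2.4.6, pandas 2.3.3, scipy 1.17.1 and matplotlib 3.10.9 were used.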

Additional observations from a re-analysis of the deposited data

How the results depend on the processing

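No paired analysis was possible because each tissue has 1 sample. The liver library was among those moved most by other scalings: its values were shifted by 0.84 on the log2 scale with median-of-ratios size factors and by 1.07 with upper quartile scaling, and kidney by 0.03 and 0.06, relative to the mean library. The log2 ratio of Hnf4a, kidney over liver, was 0.20 and became -0.61 and -0.81 under these scalings. The ratio of Hnf4a in colon over the highest other tissue of the first table was 0.12 and became -0.58 and -0.84, with liver highest, and kidney over colon, -0.12, became 0.0256 with upper quartile scaling. For Foxa3, stomach over the highest other tissue became -0.20 and -0.33, again with liver highest. Hnf4g was highest in colon among 13 tissues and in intestine among 19, where its ratio, colon over the highest other tissue, was -4.97. At 5 FPKM in place of 1, the members counted in kidney were 1, Hnf4a. Of the 24 genes most like a member, 3 remained with Spearman's rho, 6 over 19 tissues and 12 with 0.1 FPKM added. Of 60 recomputed counts of calls, levels or leading tissues and likeness, 56 stayed within 1.5 times. Such a count can stay while its genes change, as where Hnf4g took the place of Cdx2 with 19 tissues. Of the recomputed ratios, levels and shares of single genes, 41 were classed as the same, 24 as moved and 8 as reversed. The number of enriched members was 2 to 4 under all settings: 2 without liver (Onecut1 lost), 2 with 19 tissues at a fold of 8 (Cdx1 lost), 4 at a fold of 2. Reads limit what can be said of values near 3 reads per library, such as those of FOXA genes in kidney.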
